A study of Mus musculus with 14 samples.

Results

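The 10 acute phase genes described here were the serum amyloid A genes Saa1, Saa2, Saa3 and Saa4, the orosomucoid genes Orm1 and Orm2, haptoglobin (Hp), hemopexin (Hpx), the serum amyloid P gene Apcs and lipocalin-2 (Lcn2). They were taken by gene symbol, whatever their values, from a table of 20377 symbols measured in 14 mouse liver libraries. Where a symbol had several rows, the row with the highest mean was to be used, and each of these 10 genes had 1 row. All 10 were among the 12638 symbols with at least 1 RPKM (reads normalized to transcript length and library size) in at least 4 libraries, the filter for testing. Saa3 passed only through the hepatocytes, since 1 ductal library alone reached 1 RPKM, so it had to differ from them, and its differences from hepatocytes are given without a test.

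Acute phase proteins are plasma proteins whose synthesis in the liver changes with infection, injury or inflammation. Interleukin-6 family cytokines, which signal through gp130, JAK kinases and STAT3, and interleukin-1, which signals through NF-kB, drive their genes together with C/EBP factors. Hepatocytes are the main source of most of them, whereas mouse Saa3 and Lcn2 are also made outside hepatocytes, Saa3 by macrophages and fat cells among others and Lcn2 by epithelia and neutrophils.

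The samples were sorted from livers of adult chimeric C57BL/6 mice in which mature hepatocytes were marked with the red protein mTomato. Every animal received 0.1% DDC, a porphyrin-inducing liver toxicant that provokes a ductular reaction, for 5 to 8 weeks, and no uninjured animals are among the samples. Hepatocyte-derived ductal cells (5 libraries) were mTomato-positive donor cells, and cholangiocyte-derived ductal cells (5 libraries) were mTomato-negative host cells. Both were sorted as positive for the ductal antigen MIC1-1C3, low in side scatter and negative for CD11b, CD26, CD31 and CD45, per the labels. Hepatocytes (4 libraries) are labelled with their cell type only, and the design text counts 3 of them. Neither the host's genotype nor the number of animals behind a library is given in the labels, so p-values measure the spread between these libraries, which may be technical. Below, values of a gene run by library number, which is 219, 220, 225, 248 and 611 in hepatocyte-derived ductal cells, 118, 219, 220, 225 and 611 in cholangiocyte-derived ductal cells and 118, 225, 248 and 611 in hepatocytes.

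The 10 ductal markers summed to 16970 to 19759 RPKM per library in hepatocyte-derived ductal cells, 20813 to 22340 RPKM in cholangiocyte-derived ductal cells and 636 to 1425 RPKM in hepatocytes, and most of each ductal sum was Spp1, at 17560 RPKM in hepatocyte-derived and 18618 RPKM in cholangiocyte-derived ductal cells. All 10 were higher in both ductal groups than in hepatocytes (9 in hepatocyte-derived cells after quantile normalization). Of all tested genes, 66.2% were higher than in hepatocytes in hepatocyte-derived and 67.1% in cholangiocyte-derived ductal cells. Cftr, among the 10, passed the filter through ductal libraries alone, so its difference from hepatocytes was fixed. Krt19, Krt7, Epcam and Muc1, with hepatocyte medians of 0.49, 0.14, 0.885 and 0.215 RPKM, also needed ductal libraries to pass. The count of 10 higher markers is therefore only a description. In hepatocyte-derived ductal cells 6 were lower than in cholangiocyte-derived ductal cells, as were 21% of all tested genes. The keratin gene Krt19 averaged 42.5 RPKM in hepatocyte-derived ductal cells, 658 RPKM in cholangiocyte-derived ductal cells and 2.86 RPKM in hepatocytes, and Epcam 85.3, 545 and 2.88 RPKM. The 11 hepatocyte markers summed to 4450 to 9444 RPKM, 2882 to 4809 RPKM and 52675 to 70010 RPKM in the same order of groups. Cholangiocyte-derived libraries 118 and 220 and hepatocyte library 118 stood apart by markers of other cells. Their 13 macrophage markers summed to 436 RPKM, 299 RPKM and 1547 RPKM. The other cholangiocyte-derived libraries had 50.5 to 244 RPKM and the other hepatocyte libraries 31.9 to 42.3 RPKM, so library 220 was not far above library 611 by this sum. Their 6 stellate markers summed to 193 RPKM, 248 RPKM and 113 RPKM. The other cholangiocyte-derived libraries had 24.6 to 45.8 RPKM of these and the other hepatocyte libraries 4.55 to 6.17 RPKM. Leaving these 3 libraries out did not alter how many of the 10 genes were called in either direction in any comparison below. Depth, estimated from the smallest steps between low values, ranged from 18900000 to 28200000 reads per library, a 1.49-fold range. The fit behind this estimate was weak, so the range is only a rough guide.

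Sequence upstream of the transcription start was on hand for 8 of the 10 genes, as the 250 bases before the start in the RefSeq promoter table for build GRCm38.p6. The windows of Saa1 (chr7:46742981-46743230, minus strand), Saa2 (chr7:46751583-46751832, plus strand), Saa3 (chr7:46715677-46715926, minus strand) and Lcn2 (chr2:32387740-32387989, minus strand) are printed 5′ to 3′ on the gene's strand. Saa1 and Saa2 are shown because their transcripts moved together in these libraries, Saa3 as the Saa gene lowest in all groups, and Lcn2 because its level was not lower in either ductal group by the test. Capitals mark matches to the C/EBP motif TTNNGNAA on either strand.
Saa1: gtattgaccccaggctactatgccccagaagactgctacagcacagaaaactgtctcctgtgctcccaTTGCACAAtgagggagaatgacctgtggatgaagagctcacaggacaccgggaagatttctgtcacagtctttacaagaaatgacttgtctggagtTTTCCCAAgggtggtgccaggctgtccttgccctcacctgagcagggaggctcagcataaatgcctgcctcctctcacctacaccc
Saa2: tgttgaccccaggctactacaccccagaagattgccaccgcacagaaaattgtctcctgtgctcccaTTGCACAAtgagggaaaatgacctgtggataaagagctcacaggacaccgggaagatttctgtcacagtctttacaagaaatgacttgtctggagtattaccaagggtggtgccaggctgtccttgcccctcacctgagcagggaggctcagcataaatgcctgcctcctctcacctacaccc
Saa3: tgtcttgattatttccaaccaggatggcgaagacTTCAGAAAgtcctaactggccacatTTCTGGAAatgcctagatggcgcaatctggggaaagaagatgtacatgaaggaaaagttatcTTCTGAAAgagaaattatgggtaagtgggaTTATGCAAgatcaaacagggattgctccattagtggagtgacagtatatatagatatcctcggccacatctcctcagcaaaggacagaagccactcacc
Lcn2: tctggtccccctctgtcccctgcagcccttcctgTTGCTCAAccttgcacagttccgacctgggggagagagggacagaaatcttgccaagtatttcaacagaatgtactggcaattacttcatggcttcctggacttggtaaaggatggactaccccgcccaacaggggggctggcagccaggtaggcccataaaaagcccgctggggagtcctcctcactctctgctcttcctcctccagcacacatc
The Saa1 and Saa2 windows were 95.2% identical, with 238 matching bases over 250 aligned columns. They share the match TTGCACAA, and Saa1 holds a second match, TTTCCCAA, where Saa2 differs. The C/EBP motif was found in 7 of the 8 windows, all but that of Apcs, and in 36.8% of 32851 promoter windows of the same length. The NF-kB motif (GGG, any 2 bases, then TTTCC), present in 1.41% of all windows, was found in none of the 8. The STAT motif TTCNNNGAA, present in 7.02% of all windows, was found among the 8 only in that of Apcs. These are letter matches in a window and not binding sites.

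Relative to hepatocytes, hepatocyte-derived ductal cells had lower levels of 9 of the 10 acute phase transcripts, with Lcn2 as the exception that did not pass the test. The 9 include Saa3, whose difference the filter fixed, and so do the counts and medians that follow. In this comparison 14.8% of all tested genes were called lower and 66.2% higher, 81% in all, at an adjusted p under 0.05 in limma. The median log2 fold change of the 10 genes was -3.71, against 0.67 over all tested genes, and the libraries of the groups did not overlap for 9 of the genes, nor for 72.2% of all tested genes, 12.4% with the ductal cells lower and 59.9% with them higher. Cholangiocyte-derived ductal cells had lower levels than hepatocytes of the same 9 genes and a higher level of Lcn2, where 17.4% of all tested genes were called lower and 67.1% higher, 84.4% in all. Their median was -4.71, against 0.76 over all genes, and the groups overlapped for none of the 10 genes. The share of all tested genes without overlap was 75.2% in that comparison, 14.7% with the ductal cells lower and 60.5% with them higher. The comparisons with hepatocytes share the hepatocyte libraries. Between the ductal groups, Hp and Hpx were higher and Lcn2 was lower in hepatocyte-derived cells, and 7 genes did not pass the test, where 15.1% of all genes were called higher and 21% lower, 36.2% in all. The libraries of the ductal groups did not overlap for 3 of the 10 genes, nor for 33.8% of all tested genes, 13.4% higher and 20.4% lower in hepatocyte-derived cells. In sorted bulk RNA, fewer cells of a type and less RNA per cell cannot be told apart. Rescaling the libraries by median ratios brought the median of all genes to 0.03 and 0.08 in the comparisons with hepatocytes. Under it the same 9 genes were lower in both, and Lcn2 was also called lower in hepatocyte-derived ductal cells. The calls over all genes then divided into 4792 higher and 4549 lower for hepatocyte-derived ductal cells, in place of 8363 and 1873, and 5198 higher and 4734 lower for cholangiocyte-derived ductal cells, in place of 8475 and 2195. Quantile normalization gave 3069 higher and 2403 lower between the ductal groups, in place of 1913 and 2657.

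**Figure D1:**
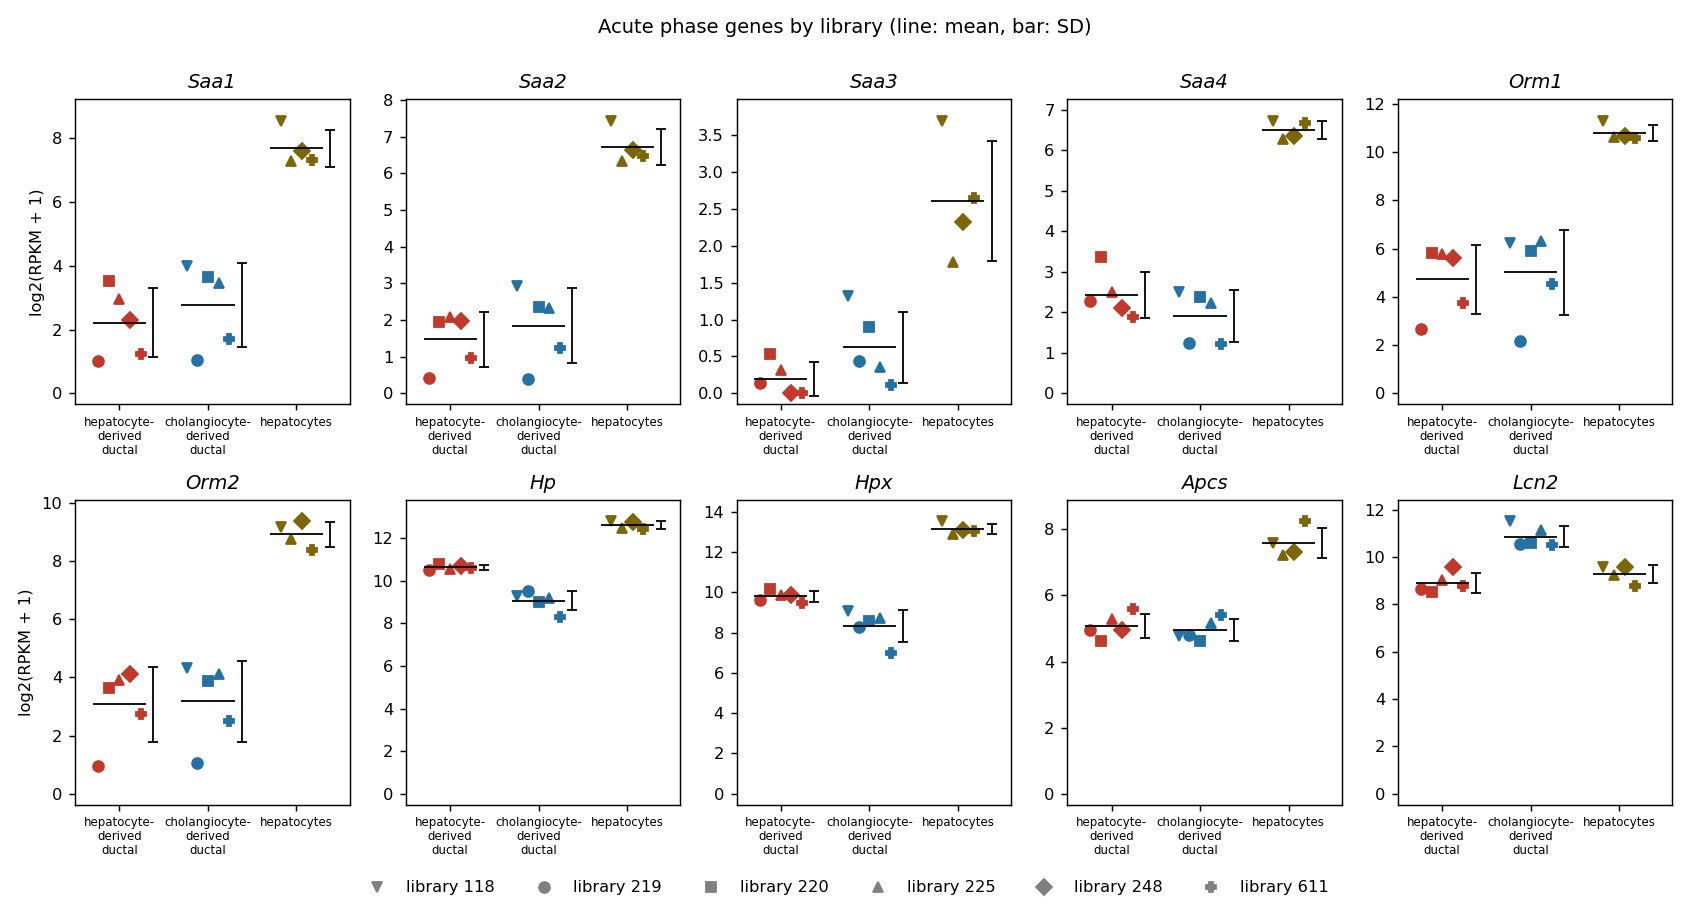
Levels of the 10 acute phase genes in each library, as log2(RPKM + 1) on the vertical axis of each panel, with group mean and SD. Each point is a library and its shape gives the library number. Hepatocytes lie above both ductal groups for 9 genes, the library 219 points are the lowest of both ductal groups for Saa1, Saa2, Orm1 and Orm2, and Lcn2 is highest in cholangiocyte-derived ductal cells.

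Saa1 and Saa2 encode the inducible serum amyloid A proteins, which are carried on high-density lipoprotein and rise steeply in plasma in inflammation. In mm9, the build of the table, the 4 Saa genes lie together at chr7:53967368-54009684. Saa1 had 1.04, 10.5, 6.84, 3.93 and 1.37 RPKM in hepatocyte-derived ductal cells, 14.8, 1.07, 11.5, 10.1 and 2.26 RPKM in cholangiocyte-derived ductal cells and 369, 153, 193 and 156 RPKM in hepatocytes. Every ductal library lay below every hepatocyte library, while the ductal groups overlapped. The difference from hepatocytes was -5.46 ± 0.64 (log2 fold change ± SE, adjusted p = 1.78e-06, limma) in hepatocyte-derived and -4.90 ± 0.64 (adjusted p = 4.58e-06) in cholangiocyte-derived ductal cells. These means were 2.18% and 3.65% of the hepatocyte mean.

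Saa2 had 0.34, 2.83, 3.23, 2.91 and 0.94 RPKM in hepatocyte-derived ductal cells, 6.66, 0.30, 4.07, 4.02 and 1.36 RPKM in cholangiocyte-derived ductal cells and 171, 79.1, 98.0 and 86.9 RPKM in hepatocytes. As for Saa1, the 219 libraries were at the bottom of both ductal groups and hepatocyte library 118 was at the top. Its log2 fold changes from hepatocytes were -5.24 ± 0.48 (adjusted p = 1.45e-07, limma) in hepatocyte-derived and -4.86 ± 0.48 (adjusted p = 2.46e-07) in cholangiocyte-derived ductal cells. The ratio of Saa1 to Saa2 was 1.35 to 3.71 in hepatocyte-derived ductal cells, 1.66 to 3.57 in cholangiocyte-derived ductal cells and 1.79 to 2.16 in hepatocytes. The transcripts are 93.9% identical and share 13.2% of their 50-nt stretches, so how the authors' counting divided reads between them is uncertain.

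Saa4, the constitutive member of the family, had 3.85, 9.26, 4.62, 3.32 and 2.71 RPKM in hepatocyte-derived ductal cells, 4.70, 1.36, 4.19, 3.68 and 1.31 RPKM in cholangiocyte-derived ductal cells and 105, 76.6, 80.55 and 102 RPKM in hepatocytes. The ductal libraries were far below the hepatocytes and spread less than for Saa1, 3.42-fold from lowest to highest in hepatocyte-derived and 3.59-fold in cholangiocyte-derived cells. Saa4 differed from hepatocytes by -4.08 ± 0.32 (adjusted p = 2.51e-08, limma) in hepatocyte-derived and -4.60 ± 0.32 (adjusted p = 4.68e-09) in cholangiocyte-derived ductal cells.

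Saa3 was the lowest of the 10 genes in all 3 groups. It had 0.10, 0.45 and 0.25 RPKM and was listed at 0 in libraries 248 and 611 in hepatocyte-derived ductal cells, and had 1.49, 0.36, 0.87, 0.28 and 0.08 RPKM in cholangiocyte-derived ductal cells and 11.9, 2.42, 4.00 and 5.24 RPKM in hepatocytes. The cholangiocyte-derived and hepatocyte libraries numbered 118, which had the most macrophage marker RNA of their groups, were the highest there for Saa3. This was not particular to Saa3, since both were also the highest of their groups for Saa1, Saa2, Saa4, Hpx and Lcn2. The part of macrophages in the Saa3 level was not tested. The log2 fold changes from hepatocytes were -2.41 ± 0.32 in hepatocyte-derived and -1.98 ± 0.32 in cholangiocyte-derived ductal cells, which understate so low a gene. They are given as a description, since Saa3 could pass the filter only by being higher in hepatocytes. By the rough depth estimate, the Saa3 values stand for about 0 to 6 reads per library in hepatocyte-derived ductal cells, 1 to 19 reads in cholangiocyte-derived ductal cells and 29 to 130 reads in hepatocytes. Its mean was 2.71% of the hepatocyte mean in hepatocyte-derived ductal cells, 1.48% without library 220 and 4.12% without hepatocyte library 118. In cholangiocyte-derived ductal cells it was 10.4% of the hepatocyte mean, 6.74% without their library 118 and 15.8% without hepatocyte library 118.

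Orm1 and Orm2 encode alpha-1-acid glycoproteins, plasma carriers of basic drugs and lipophilic compounds, and lie with Orm3 at chr4:63005600-63026911 in mm9. Orm1 had 5.31, 55.0, 53.9, 47.9 and 12.4 RPKM in hepatocyte-derived ductal cells, 73.5, 3.45, 58.85, 78.5 and 22.0 RPKM in cholangiocyte-derived ductal cells and 2487, 1583, 1615 and 1535 RPKM in hepatocytes. Within either ductal group libraries 219 and 611 were the lowest, and all ductal libraries lay far below the hepatocytes. The log2 fold changes of Orm1 from hepatocytes were -6.07 ± 0.83 (adjusted p = 8.46e-06, limma) in hepatocyte-derived and -5.77 ± 0.83 (adjusted p = 1.23e-05) in cholangiocyte-derived cells. Without cholangiocyte-derived library 219, the value for cholangiocyte-derived cells was -5.05. Its mean was 1.93% of the hepatocyte mean in hepatocyte-derived and 2.62% in cholangiocyte-derived ductal cells, beside 1.94% and 2.22% for Orm2.

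Orm2 had 0.94, 11.6, 14.05, 16.2 and 5.62 RPKM in hepatocyte-derived ductal cells, 19.2, 1.07, 13.8, 16.4 and 4.72 RPKM in cholangiocyte-derived ductal cells and 569, 434, 656 and 334 RPKM in hepatocytes. The groups of ductal cells overlapped throughout, and again both 219 libraries were the lowest. It differed from hepatocytes by -5.85 ± 0.70 (adjusted p = 2.20e-06, limma) in hepatocyte-derived and -5.73 ± 0.70 (adjusted p = 2.24e-06) in cholangiocyte-derived ductal cells. The paralog Orm3 reached at most 1.00 RPKM in hepatocyte-derived ductal cells and 1.62 RPKM in cholangiocyte-derived ductal cells, against 26.1 to 62.2 RPKM in hepatocytes. Orm1 and Orm2 transcripts are 91.0% identical with 20.4% of 50-nt stretches shared, so their division is uncertain too.

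Haptoglobin and hemopexin are the plasma scavengers of free haemoglobin and free haem, encoded at chr8:112099028-112103072 and chr7:112740125-112748630 in mm9. Their transcripts stayed far more abundant in ductal cells than those of Saa and Orm genes, and hepatocyte-derived ductal cells held more of both than cholangiocyte-derived ductal cells. Hp had 1442, 1782, 1481, 1671 and 1551 RPKM in hepatocyte-derived ductal cells, 621, 736, 519, 582 and 319 RPKM in cholangiocyte-derived ductal cells and 7057, 5783, 6914 and 5439.7 RPKM in hepatocytes. The 3 groups formed 3 separate bands, with the tightest spread in hepatocyte-derived ductal cells, 1.24-fold from lowest to highest. Against hepatocytes, Hp changed by -1.98 ± 0.20 (adjusted p = 3.51e-07, limma) in hepatocyte-derived and -3.54 ± 0.20 (adjusted p = 5.08e-10) in cholangiocyte-derived ductal cells. Under quantile normalization the value for hepatocyte-derived ductal cells was -0.52 (adjusted p = 0.048).

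Hp was 2.85-fold higher by mean RPKM in hepatocyte-derived than in cholangiocyte-derived ductal cells, a log2 fold change of 1.56 ± 0.19 (adjusted p = 1.28e-05, limma). The means were 1586 ± 140 RPKM in hepatocyte-derived and 556 ± 154 RPKM in cholangiocyte-derived ductal cells (SD, n = 5 each), and 6298 ± 808 RPKM in hepatocytes (SD, n = 4). That placed Hp at 25.2% of the hepatocyte mean in hepatocyte-derived ductal cells and 8.82% in cholangiocyte-derived ductal cells.

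Hpx had 789.9, 1162, 949.9, 922 and 712 RPKM in hepatocyte-derived ductal cells, 539, 310.4, 381, 417 and 127 RPKM in cholangiocyte-derived ductal cells and 11771, 7711, 8897 and 8375 RPKM in hepatocytes. As for Hp, no library of a group fell within another group's range, and cholangiocyte-derived library 611 was the lowest. The difference from hepatocytes was -3.34 ± 0.32 (adjusted p = 2.39e-07, limma) in hepatocyte-derived and -4.82 ± 0.32 (adjusted p = 3.21e-09) in cholangiocyte-derived ductal cells. Hepatocyte-derived exceeded cholangiocyte-derived ductal cells by 1.48 ± 0.30 (adjusted p = 0.00143, limma), a 2.56-fold ratio of means. Hpx exceeded Hp in all hepatocyte libraries, with a ratio of Hp to Hpx of 0.600 to 0.777, while the ratio was 1.53 to 2.18 in hepatocyte-derived and 1.15 to 2.50 in cholangiocyte-derived ductal cells.

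Apcs encodes serum amyloid P component, a pentraxin that is a major acute phase reactant in mice (chr1:174824092-174825185 in mm9). It had 29.9, 23.6, 37.8, 30.1 and 47.5 RPKM in hepatocyte-derived ductal cells, 26.6, 26.8, 23.4, 35.0 and 41.9 RPKM in cholangiocyte-derived ductal cells and 190.05, 149, 158 and 301 RPKM in hepatocytes. Library 611 was the highest in each of the 3 groups, whereas for Saa1 and Orm1 it was among the 2 lowest. The log2 fold changes from hepatocytes were -2.51 ± 0.23 (adjusted p = 1.59e-07, limma) in hepatocyte-derived and -2.63 ± 0.23 (adjusted p = 7.01e-08) in cholangiocyte-derived ductal cells. The ductal groups differed by 0.12 ± 0.23 (adjusted p = 0.709), at 16.9% and 15.4% of the hepatocyte mean in hepatocyte-derived and cholangiocyte-derived cells.

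Lcn2 encodes lipocalin-2, which binds bacterial siderophores and so withholds iron from bacteria (chr2:32240157-32243259 in mm9). It was the 1 gene of the 10 that was higher in a ductal group than in hepatocytes. Lcn2 had 397, 367, 517, 775 and 439.8 RPKM in hepatocyte-derived ductal cells, 2904, 1492, 1558, 2289 and 1454 RPKM in cholangiocyte-derived ductal cells and 768, 600.2, 754 and 434 RPKM in hepatocytes. All cholangiocyte-derived libraries stood above all others, and the hepatocyte-derived and hepatocyte libraries overlapped. Cholangiocyte-derived ductal cells exceeded hepatocytes by 1.58 ± 0.26 (adjusted p = 5.41e-05, limma), 3.03-fold by means of 1939 ± 639 RPKM (SD, n = 5) and 639 ± 156 RPKM (SD, n = 4). Hepatocyte-derived ductal cells, with 499 ± 164 RPKM (SD, n = 5), were lower than cholangiocyte-derived ductal cells by a log2 fold change of -1.95 ± 0.25 (adjusted p = 2.06e-05, limma), 25.7% of their mean.

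For hepatocyte-derived ductal cells against hepatocytes the Lcn2 difference was -0.37 ± 0.26 (adjusted p = 0.201, limma), which did not pass the test. With median-ratio rescaling it was -1.17 (adjusted p = 0.00122), a call as lower, and with quantile normalization it was 0.42 (adjusted p = 0.181), so its direction depended on the scaling. The other Lcn2 differences kept their direction and call under both scalings, at 0.76 and 2.71 for cholangiocyte-derived ductal cells against hepatocytes and -1.92 and -2.29 between the ductal groups.

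Lipocalin-2 is also stored by neutrophils. The 12 neutrophil markers in the table summed to 0.72 to 63.9 RPKM in hepatocyte-derived ductal cells, 2.43 to 158 RPKM in cholangiocyte-derived ductal cells and 0.33 to 68.8 RPKM in hepatocytes, and by mean level S100a9 and S100a8 were the most abundant of them. Elane, which encodes neutrophil elastase, was the 1 marker of the 12 at or under 0.1 RPKM in every hepatocyte-derived library. In that group S100a9 reached 31.75 RPKM, S100a8 25.57 RPKM, Retnlg 2.14 RPKM and Csf3r 2.13 RPKM. In the 219 libraries, where the sums were 0.72 RPKM in hepatocyte-derived and 2.43 RPKM in cholangiocyte-derived ductal cells, Lcn2 was at 397 and 1492 RPKM. Cholangiocyte-derived library 118 had the highest neutrophil marker sum and the highest Lcn2. Without it, cholangiocyte-derived library 220 and hepatocyte library 118, Lcn2 differed by 1.55 between cholangiocyte-derived ductal cells and hepatocytes (adjusted p = 0.000387, limma) and by -1.83 between the ductal groups (adjusted p = 0.000227). Of the 5 neutrophil markers tested, 3 were called higher in cholangiocyte-derived ductal cells than in hepatocytes on the deposited scale. The share of all tested genes called higher there was 67.1%. The count was 0 after either other scaling and 1 without those 3 libraries. Retnlg and Mmp9, among the 5, passed the filter through ductal libraries alone. Csf3r, with a hepatocyte median of 0.2 RPKM, also needed ductal libraries to pass, so this count is only a description. In hepatocyte-derived ductal cells against hepatocytes 0 of the 5 were called higher, and 4 were without those 3 libraries. That setting called 8700 of all 12638 tested genes higher in the same comparison. None of the 5 passed between the ductal groups, where 36.2% of all tested genes did. The part of neutrophil RNA in the Lcn2 level was not tested.

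**Figure D2:**
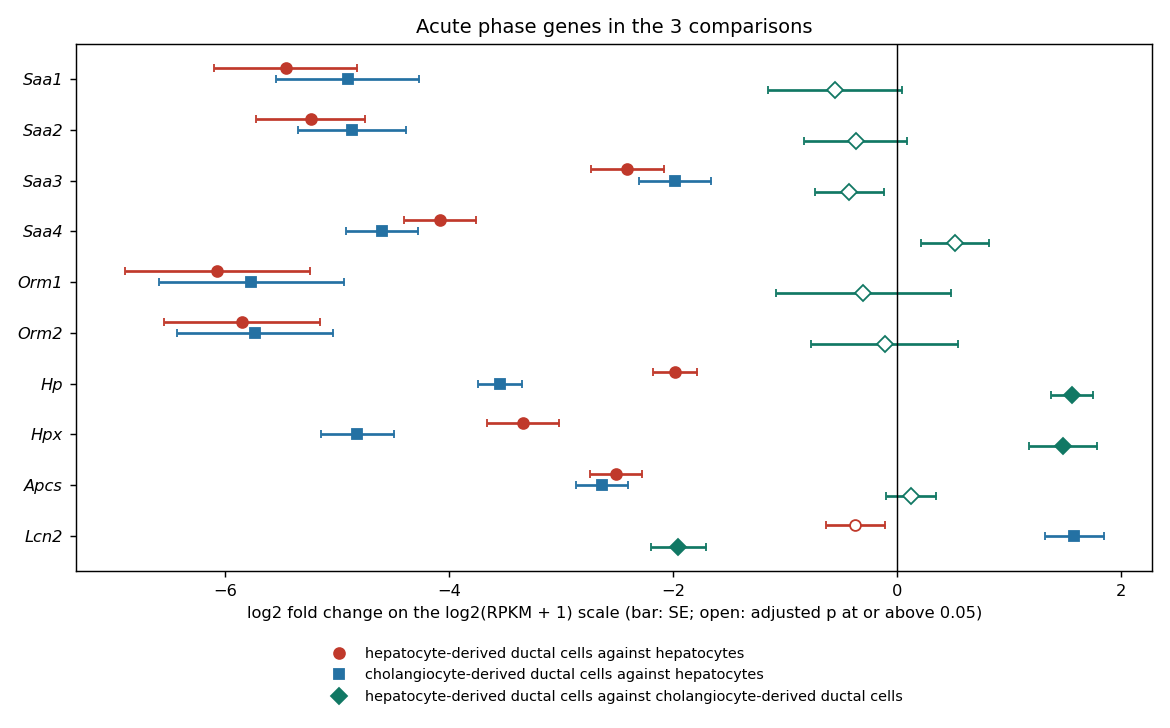
Log2 fold change of the 10 acute phase genes on the log2(RPKM + 1) scale, with SE bars, for hepatocyte-derived ductal cells against hepatocytes (circles), cholangiocyte-derived ductal cells against hepatocytes (squares) and hepatocyte-derived against cholangiocyte-derived ductal cells (diamonds). Open symbols did not pass an adjusted p of 0.05. Orm1 lies at -6.07 and -5.77, the Saa3 points against hepatocytes are given without a test, Lcn2 lies at 1.58 for cholangiocyte-derived ductal cells against hepatocytes, and filled diamonds are Hp, Hpx and Lcn2 only.

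By RPKM, which is per transcript length, a different gene of the 10 led in each group. Hpx led in all 4 hepatocyte libraries, Hp in all 5 hepatocyte-derived libraries and Lcn2 in all 5 cholangiocyte-derived libraries. The ratio of Lcn2 to Hp was 0.206 to 0.464 in hepatocyte-derived ductal cells, 2.03 to 4.67 in cholangiocyte-derived ductal cells and 0.0798 to 0.109 in hepatocytes, with no overlap between groups.

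Between the ductal groups the Saa and Orm genes did not pass the test. Saa1 differed by -0.56 ± 0.60 (adjusted p = 0.522, limma) and Orm1 by -0.30 ± 0.79 (adjusted p = 0.806). The remaining values were -0.37 for Saa2, -0.43 for Saa3, 0.51 for Saa4 and -0.11 for Orm2. A p that misses the threshold does not show that these levels were the same. Leaving out cholangiocyte-derived library 219 moved Orm1 to -1.02, and leaving out the 3 libraries with other-cell markers turned Saa1 to 0.14, Saa2 to 0.16, Orm1 to 0.39 and Orm2 to 0.51.

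**Figure D3:**
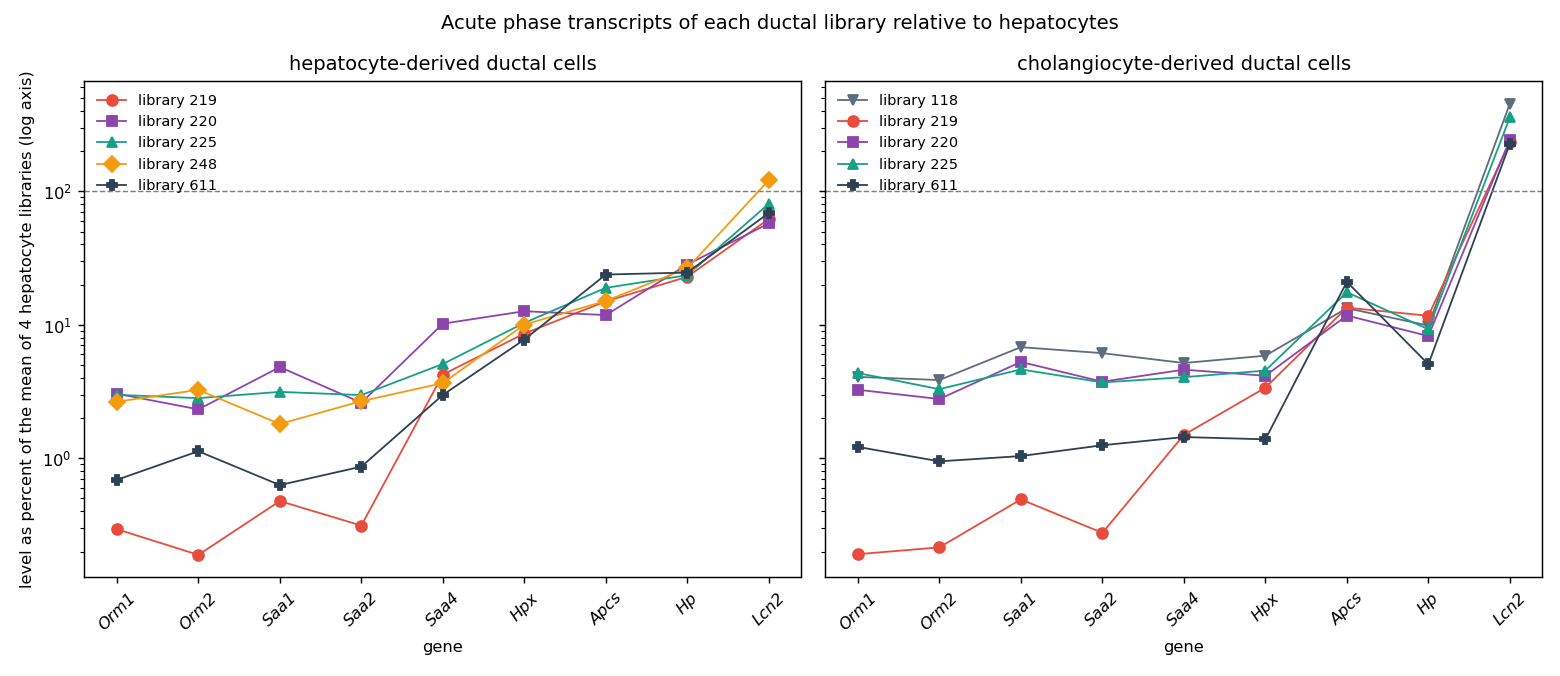
Level of 9 acute phase genes in each ductal library as a percent of the mean of the 4 hepatocyte libraries, on a log axis, with hepatocyte-derived ductal cells at left and cholangiocyte-derived ductal cells at right; Saa3 is left out because 2 libraries are listed at 0. Each line joins the genes of a library. The lines fan out from 0.294% to 3.05% for Orm1 in hepatocyte-derived ductal cells and lie between 22.9% and 28.3% for Hp.

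The spread among ductal libraries differed between genes. In hepatocyte-derived ductal cells Orm1 ran from 0.294% to 3.05% of the hepatocyte mean, a 10.4-fold range, and in cholangiocyte-derived ductal cells from 0.191% to 4.35%, a 22.8-fold range. Saa1 spanned 0.478% to 4.82% and 0.492% to 6.80% in those groups. Hp spanned 22.9% to 28.3% in hepatocyte-derived and 5.06% to 11.7% in cholangiocyte-derived cells, and Apcs 11.8% to 23.8% and 11.7% to 21.0%. Libraries low in Orm1 were thus not low in Hp or Apcs to the same degree, and the ratio of Hp to Orm1 ran from 27.5 to 272 in hepatocyte-derived ductal cells, 7.42 to 213 in cholangiocyte-derived ductal cells and 2.84 to 4.28 in hepatocytes.

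Ductal libraries with the same number had similar Orm1 levels. Library 219 had 5.31 RPKM in hepatocyte-derived and 3.45 RPKM in cholangiocyte-derived ductal cells, library 220 had 55.0 and 58.85 RPKM, library 225 had 53.9 and 78.5 RPKM and library 611 had 12.4 and 22.0 RPKM. What the numbers stand for is not given in the labels. Cyp3a11, a hepatocyte drug-metabolizing enzyme that is none of the 10 genes, varied likewise, from 0.0793% to 2.72% of the hepatocyte mean in hepatocyte-derived and 0.0432% to 4.78% in cholangiocyte-derived ductal cells. Albumin (Alb) ran from 8.85% to 19.1% and from 5.71% to 9.03%. Hepatocyte RNA carried over from other cells was not tested as a source of these levels.

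After subtracting each group's mean, some genes varied together over the 14 libraries, given here as Pearson correlations of log2(RPKM + 1) without a test. Saa1 and Saa2 correlated at 0.953, Orm1 and Orm2 at 0.959, and Saa1 and Orm1 at 0.917. Hp and Hpx correlated at 0.786. Hpx also correlated with Saa4 at 0.760, with Saa1 at 0.722 and with Saa2 at 0.645. Among the lower values were 0.487 for Orm1 with Hpx, 0.00339 for Orm1 with Hp, -0.33 for Saa1 with Apcs and -0.470 for Hpx with Apcs. The points share libraries, and 4 of them are hepatocytes from some of the same numbers.

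The genes most like Saa1, Saa3, Orm1, Hp and Lcn2 were found by the Pearson correlation of log2(RPKM + 1) over all 14 libraries, and among them the difference between the groups carries much of each value. For Saa1 these were the glucuronosyltransferase Ugt2b1 (0.994), the serine protease inhibitor Serpina3k (0.993) and Asgr1 (0.992), a subunit of the asialoglycoprotein receptor. For Orm1 they were the cytochrome P450 gene Cyp1a2 (0.997), 1100001G20Rik (0.996) and the apolipoprotein Apoa2 (0.996). Cyp1a2 averaged 8.30 RPKM in hepatocyte-derived ductal cells, 13.2 RPKM in cholangiocyte-derived ductal cells and 463 RPKM in hepatocytes. For Saa3 they were Ccrl1 (0.970), Lipg (0.965) and Ctsb (0.960).

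For Hp they were the cathepsin Ctsl (0.996), the glutathione peroxidase Gpx1 (0.994) and Gltpd2 (0.994), each with its mean in hepatocyte-derived ductal cells between those of the other groups. Gpx1 averaged 1171 RPKM in hepatocyte-derived ductal cells, 541 RPKM in cholangiocyte-derived ductal cells and 2872 RPKM in hepatocytes. For Lcn2 they were Gpx2 (0.947), Sipa1l2 (0.933) and Ephb2 (0.930), and Gpx2, an epithelial glutathione peroxidase, averaged 1.92 RPKM in hepatocyte-derived ductal cells, 48.0 RPKM in cholangiocyte-derived ductal cells and 4.51 RPKM in hepatocytes. On deviations from the group means, the gene most like Saa1 was the urea cycle gene Arg1 (0.985), that most like Orm1 was Apoa2 (0.984), and that most like Hp was Hsd17b13 (0.947).

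A wider list of 31 other positive acute phase genes was lower in most of its members. Hepatocyte-derived ductal cells had 27 lower and 3 higher than hepatocytes, with a median of -1.79. Cholangiocyte-derived ductal cells had 28 lower and 2 higher, with a median of -3.48. Hamp2, among the 31, had medians of 0.48 and 0.77 RPKM in these groups and at least 2.84 RPKM in hepatocytes. It passed the filter only through the hepatocytes, so its difference from them was fixed, and the list includes it. Of all tested genes, 14.8% were lower and 66.2% higher in the hepatocyte-derived comparison, and 17.4% and 67.1% in the cholangiocyte-derived comparison. Between the ductal groups 14 were higher and 4 lower in hepatocyte-derived cells, where 15.1% of all tested genes were higher and 21% lower. The median of the list was 0.63, against -0.03 over all tested genes. The fibrinogen chain gene Fgg averaged 507 RPKM in hepatocyte-derived ductal cells, 212 RPKM in cholangiocyte-derived ductal cells and 3206 RPKM in hepatocytes. Its log2 fold changes were -2.65 ± 0.15 and -3.90 ± 0.15 against hepatocytes and 1.25 ± 0.14 between the ductal groups (adjusted p = 1.11e-09, 1.29e-11 and 7.32e-06, limma). Fga, the alpha chain gene, followed the same order, and Mbl1, a mannose-binding lectin, was 0.86 ± 0.16 higher in hepatocyte-derived than in cholangiocyte-derived ductal cells (adjusted p = 0.000711, limma). Tissue factor (F3) went the other way, at 35.4 RPKM in hepatocyte-derived ductal cells, 98.8 RPKM in cholangiocyte-derived ductal cells and 2.92 RPKM in hepatocytes. Il1rn, the interleukin-1 receptor antagonist, singled out after its values were seen, had the same order as F3, at 69.6, 218 and 8.74 RPKM.

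Negative acute phase genes, whose plasma proteins fall in inflammation, were lower as well. All 13 were lower than in hepatocytes in both ductal groups, with medians of -2.15 in hepatocyte-derived and -3.56 in cholangiocyte-derived ductal cells. Between the ductal groups 8 were higher in hepatocyte-derived cells and none was lower, with a median of 0.91. Of all tested genes, 14.8% and 17.4% were called lower than in hepatocytes, and 15.1% were higher and 21% lower between the ductal groups. Transferrin (Trf), the iron carrier, averaged 2773 RPKM in hepatocyte-derived ductal cells, 1056 RPKM in cholangiocyte-derived ductal cells and 10969 RPKM in hepatocytes. Its log2 fold change between the ductal groups was 1.39 ± 0.18 (adjusted p = 2.21e-05, limma). Igf1, a growth factor, averaged 19.6 RPKM in hepatocyte-derived ductal cells, 20.4 RPKM in cholangiocyte-derived ductal cells and 165 RPKM in hepatocytes, and its difference of -0.06 ± 0.11 between the ductal groups did not pass the test (adjusted p = 0.73, limma).

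The list of receptors and signalling genes upstream of the acute phase response was mixed. Of 22 such genes, hepatocyte-derived ductal cells had 13 higher and 5 lower than hepatocytes, and cholangiocyte-derived ductal cells had 14 higher and 4 lower. The higher counts were close to the 66.2% and 67.1% of all tested genes called higher, beside 14.8% and 17.4% called lower. The list medians were 0.36 and 0.51, below the 0.67 and 0.76 of all tested genes. Tlr4, among the 22, had a hepatocyte median of 0.055 RPKM. It needed the ductal libraries to pass the filter, so its difference from hepatocytes was fixed. After median-ratio rescaling hepatocyte-derived ductal cells had 4 higher and 13 lower, where all 12638 tested genes gave 4792 higher and 4549 lower. Cholangiocyte-derived ductal cells then had 5 and 13, where all genes gave 5198 and 4734. The direction of most calls in the list thus depended on the scaling, although its medians were below those of all genes before rescaling too. Osmr, the oncostatin M receptor, averaged 26.6 RPKM in hepatocyte-derived ductal cells, 23.0 RPKM in cholangiocyte-derived ductal cells and 2.93 RPKM in hepatocytes, log2 fold changes from hepatocytes of 2.81 ± 0.13 and 2.62 ± 0.13 (adjusted p = 1.30e-10 and 1.19e-10, limma). Il1rap, the accessory chain of the interleukin-1 receptor, was at 4.65, 3.79 and 30.7 RPKM in the same groups, at -2.47 ± 0.14 and -2.72 ± 0.14 (adjusted p = 1.27e-09 and 2.53e-10, limma). Il6ra, the interleukin-6 receptor chain, and Il6st, which encodes gp130, were picked after their values were seen. Il6ra was at 1.90 RPKM in hepatocyte-derived ductal cells, 1.49 RPKM in cholangiocyte-derived ductal cells and 7.20 RPKM in hepatocytes, and Il6st at 74.5, 83.5 and 39.8 RPKM.

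Of 17 transcription factors and IkB proteins known from acute phase promoters, hepatocyte-derived ductal cells had 11 higher and 5 lower than hepatocytes, where 66.2% of all tested genes were higher. Cholangiocyte-derived ductal cells had 10 higher and 5 lower, where 67.1% of all genes were higher, so neither count of higher genes stood apart from the rate over all genes. After rescaling these splits were 8 and 7 in hepatocyte-derived cells, and 9 and 6 in cholangiocyte-derived cells. All tested genes then divided into 4792 higher and 4549 lower, and 5198 higher and 4734 lower. The NF-kB subunit gene Relb averaged 63.0 RPKM in hepatocyte-derived ductal cells, 77.9 RPKM in cholangiocyte-derived ductal cells and 11.9 RPKM in hepatocytes, with log2 fold changes from hepatocytes of 2.35 ± 0.15 and 2.66 ± 0.15 (adjusted p = 2.67e-09 and 4.27e-10, limma). Nfkb1 and Rela, which encode other subunits, were higher by 1.98 and 1.45 in hepatocyte-derived and by 2.08 and 1.56 in cholangiocyte-derived ductal cells. Creb3l3, a hepatic factor known to act on the Apcs and Hamp genes, averaged 113 RPKM in hepatocyte-derived ductal cells, 19.2 RPKM in cholangiocyte-derived ductal cells and 182 RPKM in hepatocytes. It was higher by 2.59 ± 0.25 in hepatocyte-derived than in cholangiocyte-derived ductal cells (adjusted p = 1.75e-06, limma), while Apcs itself did not pass the test between them.

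**Figure D4:**
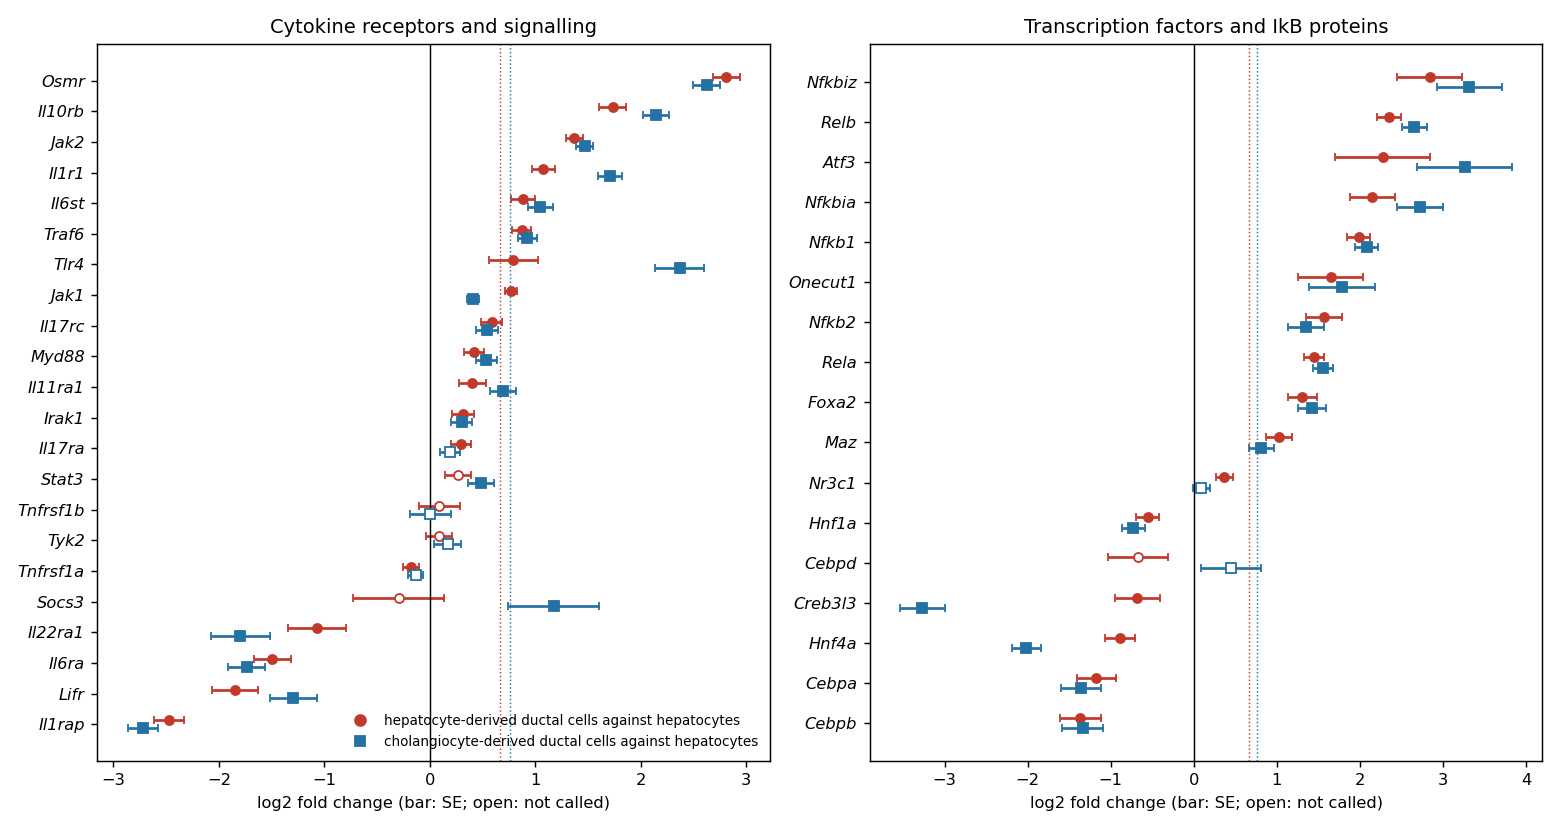
Log2 fold change against hepatocytes, with SE bars, of 22 cytokine receptor and signalling genes (left) and 17 transcription factors and IkB proteins (right), for hepatocyte-derived ductal cells (circles) and cholangiocyte-derived ductal cells (squares). Open symbols did not pass an adjusted p of 0.05, and dotted lines mark the median of all tested genes in each comparison, 0.67 and 0.76. Osmr lies highest at left, Il1rap lowest, and at right Creb3l3 lies at -0.68 for hepatocyte-derived and -3.27 for cholangiocyte-derived ductal cells.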

How the data were processed

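The 14 samples were polyadenylated RNA of sorted mouse liver cells, prepared from 75 to 200 ng of total RNA with the Illumina TruSeq kit, version 2, per the labels' protocols. The authors deposited 1 table of RPKM values with 26005 rows, rounded to 2 decimals. Bowtie 0.12.7, CASAVA and build mm9 are named in the submitters' processing notes, while the program that counted reads, and how multiply mapped reads were handled, is not stated in the sources on hand. The kit does not mark the strand. The titles identified 12 columns by name. The other 2 columns carry 220 where 2 titles carry 120, and these were matched by group only.

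Of the 20377 symbols, 3507 had more than 1 row, and the row with the highest mean was used. A symbol was tested if 4 or more libraries reached 1 RPKM. The 3 groups were fitted to log2(RPKM + 1) of all 14 libraries in limma 3.58.1 (R 4.3.3), with a mean-variance trend. P-values are two-sided and were adjusted by the Benjamini-Hochberg method over the 12638 symbols tested, with calls at an adjusted p under 0.05. Fold changes on this scale understate the change of low genes. A gene's percent or ratio compares mean RPKM. The steps were tested on simulated data. Depth was estimated from the steps between low values of transcripts of 150 to 700 nt, with GENCODE vM21 lengths for 94.5% of symbols. It is approximate, since RPKM keeps no read totals. The fit scored 0.187 to 0.389 per library, where values that all matched whole reads would score 1. Start positions in the table count from 0 and are given from 1.

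The 10 genes and all gene lists were chosen with earlier results of these data known. Besides the 10, the rule names Orm3, at most 4 genes of each list, those of smallest adjusted p, markers of other cell types, and the 3 genes most correlated with each of 5 members. Il1rn, Il6ra, Il6st and Cyp3a11 were chosen after their values were seen. Promoter windows and transcript identities used Python 3.11.15, Biopython 1.88, pandas 2.3.3 and numpy 2.4.6. Alternatives varied the pseudocount, filter, scaling, libraries, weights, rows per symbol, paralogs and a replicate block.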

Additional observations from a re-analysis of the deposited data

Results flagged for a closer look

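Each of the 10 genes was examined in each of the 3 groups, 30 sets of 4 or 5 libraries, for a library far from the others by Dixon's test, which flags about 1 in 20 sets by chance. It picked out 1 value, Orm1 in hepatocyte library 118, at 2487.23 RPKM, where the other 3 hepatocyte libraries lay between 1535.37 and 1614.99 RPKM. The same library had the highest value of the hepatocytes for every gene of the 10 except Orm2 and Apcs. Its macrophage markers summed to 1547 RPKM, against 31.9 to 42.3 RPKM in the remaining hepatocyte libraries. Whether macrophages bear on its Orm1 level was not tested.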

How the results depend on the processing

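The number of the 10 genes called was 9 for hepatocyte-derived ductal cells against hepatocytes, 10 for cholangiocyte-derived ductal cells against hepatocytes and 3 between the ductal groups whichever single library was left out, and 7 to 10, 8 to 10 and 3 to 4 under the other alternatives. The lowest counts come from summing near-identical paralogs, which leaves 8 features. A filter of 5 RPKM leaves Saa3 untested. Hpx in hepatocyte-derived ductal cells against hepatocytes was -2.02 under quantile normalization and -4.13 under median-ratio rescaling, and was called in both.

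For Lcn2 in hepatocyte-derived ductal cells against hepatocytes the sign turned under quantile normalization (0.42). Between the ductal groups, genes that had not passed the test changed sign. Orm2 was 0.0133 under quantile normalization and 0.0304 with library weights. Without the 3 libraries with other-cell markers, Saa1 was 0.14, Saa2 0.16, Orm1 0.39, Orm2 0.51 and Apcs -0.0491, and without hepatocyte-derived library 219 as well they were 0.44, 0.42, 0.91, 1.04 and -0.0162. Leaving out single libraries gave -1.02 to 0.21 for Orm1, -0.65 to 0.42 for Orm2 and -0.00566 to 0.24 for Apcs. The cause was not tested. Saa3 between the ductal groups passed the test with library weights, at -0.60 (adjusted p = 0.0224, limma). Leaving out both 219 libraries, an alternative chosen after seeing the data, changed no call.

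Libraries that share a number share only that number in the labels. Over 12638 genes, deviations from the group means correlated at 0.0208 to 0.797 over the 10 same-number pairs (median 0.218). The highest value was that of the 219 libraries. Over the 55 pairs of libraries from different groups with different numbers, the range was -0.564 to 0.464 (median -0.0591). With the number as a replicate block, 9, 10 and 4 of the 10 genes were called, as Saa4 between the ductal groups became 0.66 (adjusted p = 0.0341, limma). The RPKM table sets the precision of low values, since Saa3 rests on few reads in the ductal libraries.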

Other observations

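Genes that handle the ligands of these proteins were looked at as well. Of 16 genes for haem, haemoglobin and lipocalin handling, 12 were tested. Hepatocyte-derived ductal cells had 1 higher and 8 lower than hepatocytes, and cholangiocyte-derived ductal cells had 1 higher and 10 lower. Of all tested genes, 81% and 84.4% were called in these comparisons, 14.8% and 17.4% as lower. Between the ductal groups 6 were higher and 1 lower in hepatocyte-derived cells, where 15.1% of all tested genes were higher and 21% lower. The gene that was higher in both ductal groups was Slc22a17, a receptor for lipocalin-2, which averaged 9.27 RPKM in hepatocyte-derived ductal cells, 21.0 RPKM in cholangiocyte-derived ductal cells and 0.142 RPKM in hepatocytes. Since it reached 1 RPKM in ductal libraries alone, its difference from hepatocytes was fixed by the filter and has no test here. Between the ductal groups its log2 fold change was -1.13 ± 0.14 (adjusted p = 1.66e-05, limma). Slc22a17 therefore had the same order between the ductal groups as Lcn2, whereas the ferritin light chain gene Ftl1, an iron store, averaged 386, 277 and 1298 RPKM in hepatocyte-derived ductal cells, cholangiocyte-derived ductal cells and hepatocytes.

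Of 7 genes for receptors of serum amyloid A, 5 were tested. Ager, the receptor for advanced glycation end products, which likewise passed the filter through ductal libraries, averaged 13.9 RPKM in hepatocyte-derived ductal cells, 7.30 RPKM in cholangiocyte-derived ductal cells and 0.178 RPKM in hepatocytes, and was 0.86 ± 0.17 higher in hepatocyte-derived than in cholangiocyte-derived ductal cells on the log2 scale (adjusted p = 0.000849, limma). The lipopolysaccharide receptor Tlr4 averaged 1.28 RPKM in hepatocyte-derived ductal cells, 5.79 RPKM in cholangiocyte-derived ductal cells and 0.418 RPKM in hepatocytes, a log2 fold change of -1.58 ± 0.22 between the ductal groups (adjusted p = 4.75e-05, limma). Cd36, a scavenger receptor for lipids, averaged 126 RPKM in hepatocyte-derived ductal cells, 30.3 RPKM in cholangiocyte-derived ductal cells and 116 RPKM in hepatocytes, at 1.997 ± 0.25 between the ductal groups (adjusted p = 1.70e-05, limma).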
